A study of Mus musculus with 12 samples.

Results

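Notch is a receptor that is cleaved when a ligand on a neighbouring cell binds it, and its released intracellular part enters the nucleus and acts with the DNA-binding protein Rbpj. The Hes and Hey repressors are its best-known targets. In the adult brain the pathway is active in astrocytes, neural stem cells and blood vessels, and its components are also found in neurons. Examined here were 10 of its genes, out of the 20504 entries of the deposited coding sequence (CDS) count table. They are the effectors Hes5, Hes1, Hey1 and Hey2, the glycosyltransferase Lfng, the receptors Notch1, Notch2 and Notch3, and the ligands Dll1 and Jag1. The set was chosen by the measured RNA of Hes5 and Lfng, which was lower in mice given AZD-8055, together with known Notch genes. Values under that drug therefore describe the selection. Fits of these 10 genes under it are given as description only, and nothing is read from whether a gene passes.

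All 6 mice were 3 months old and carried Camk2a-cre and the RiboTag allele. Cre is driven by the Camk2a promoter in principal excitatory neurons of the forebrain, so the HA-tagged ribosomal protein Rpl22 is made in those cells. Mice A and B received vehicle (30% Captisol by oral gavage), although their labels read untreated, and mice C and D received the ATP-competitive mTOR inhibitor AZD-8055 (100 mg/kg by oral gavage). Tissue of the right frontal lobe was taken after 1 h, and each of these 4 mice gave an RNA-Seq library and a library of ribosome footprints. No drug is named for mice E and F, called untreated here, and whether they received vehicle is not stated. Mice E and F each gave RNA-Seq of the whole homogenate (input) and of RNA bound to HA-tagged ribosomes after immunoprecipitation (RiboTag IP). There were 2 mice per condition and 12 libraries in all.

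Counts assigned to CDS summed to between 9395385 and 10649939 in the RNA-Seq libraries of mice A to D and to between 3503873 and 9259938 in their footprint libraries. Exon counts of mice E and F summed to between 19681269 and 27878212. With the drug, translation efficiency (TE, footprints over RNA) had a negative log2 change in 75 of 76 cytosolic ribosomal protein genes. These genes are known targets of mTOR, and their median log2 change was -0.90. Of the 76, 31 were lower at an adjusted p under 0.05 (edgeR) and a fold over 2, which 0.305% of all genes passed. Mouse B stood apart, since the summed level of 4 ependymal and choroid plexus markers in RNA was 7150 normalised counts in mouse B against 283.5 to 572.5 in mice A, C and D. No excitatory neuron, astrocyte, endothelial or mural marker was at 0 in RNA of mice A to D, which at this depth says little about the share of each cell type.

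On GRCm38.p6, RefSeq places Hes5 on chromosome 4 (154960626 to 154962372) and Lfng on chromosome 5 (140607341 to 140615545). Notch1 (26457902 to 26503822) and Jag1 (137081451 to 137116520) lie on chromosome 2. Hey1 (8663359 to 8667038) and Notch2 (98013538 to 98150367) lie on chromosome 3. Dll1 (15367354 to 15376932) and Notch3 (32120820 to 32166896) lie on chromosome 17. Hey2 is on chromosome 10 (30832359 to 30842783) and Hes1 on chromosome 16 (30065357 to 30067796). All 10 are protein coding.

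Because Hes5 and Lfng were lower together, RefSeq promoter windows (250 bases before to 50 bases after an annotated start) were searched on both strands for GTGGGAA, the core letters that Rbpj prefers. Windows, 9 in all, were given for 8 of the 10 genes. Hes1 and Hey1 had none and were not searched. The windows of 3 genes, Hes5, Lfng and Hey2, held the letters. Over all 32851 windows of the table, 6.38% held them, a share per window and not per gene. The matches are shown in the 5′ to 3′ direction of the gene with 10 bases on each side, and capitals mark the motif or, where it lies on the other strand, its reverse complement TTCCCAC.
Hes5, chr4:154960830-154960856, plus strand, motif from base -83: gccgccgagtGTGGGAAcggccgcggc
Hes5, chr4:154960687-154960713, plus strand, motif from base -226: ggcgagcgcgTTCCCACagcccggaca
Lfng, chr5:140607222-140607248, plus strand, motif from base -109: cgtatcccacGTGGGAAggagagatct
Hey2, chr10:30842771-30842797, minus strand, motif from base -4: gggctgcagcGTGGGAAagaacctcca
Hey2, chr10:30842974-30843000, minus strand, motif from base -207: cgcggtggcaTTCCCACgcctctgcca
Base positions count from the start used for the window. For Lfng and Hey2 this is the 5′ end of the RefSeq gene interval given above, whereas for Hes5 it is a start inside that interval, so both Hes5 matches lie within the gene as RefSeq bounds it. Hes5 and Hey2 carry the letters in both orientations, and Lfng carries them in the sense orientation. A match of these letters is a description and was not tested as a binding site. The shorter core TGGGAA, which lies inside GTGGGAA, was found in windows of the same 3 genes and in 25.6% of all windows.

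The first comparison asked how RNA and footprints of the effectors stood in AZD-8055 mice relative to vehicle mice. Values are counts divided by DESeq2 size factors over the 8 CDS libraries of mice A to D. Hes5, a repressor that keeps neural progenitors undifferentiated, had RNA values of 100.7 and 99.45 normalised counts in vehicle mice A and B and 52.49 and 39.23 in AZD-8055 mice C and D. Its footprints were 54.13 and 54.71 in vehicle mice and 23.5 and 29.96 in AZD-8055 mice. Both readouts were lower in both treated mice, with no overlap between groups. The vehicle mean was 2.18-fold the AZD-8055 mean in RNA and 2.04-fold in footprints. The fitted log2 RNA change was -1.15 (SE 0.19, n = 2 per group). Depth limited the footprint side: 66 and 35 reads in mice A and B stood against 11 and 20 in mice C and D, and the exact Poisson 95% interval of the lowest count ran from 5.49 to 19.7 reads, counting error only. Hes5 footprints therefore averaged 33 reads per library, below the minimum of 37 set for a fit.

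Lfng, the Lunatic fringe enzyme that adds a sugar to Notch receptors and so tunes their response to Delta and Jagged ligands, gave the other large difference. Its RNA stood at 206.5 and 228.4 normalised counts in vehicle mice and at 98.68 and 109.2 in AZD-8055 mice. Its footprints stood at 140.2 and 150.1 in vehicle mice and at 79.04 and 79.4 in AZD-8055 mice. As with Hes5, every treated value lay below every vehicle value in both readouts. Fitted log2 changes were -1.09 (SE 0.13) in RNA and -0.86 (SE 0.18) in footprints. By fitted RNA change Hes5 and Lfng ranked 11 and 12 from the lowest of 12182 genes, and Lfng footprints ranked 69 from the lowest of 10695.

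**Figure D1:**
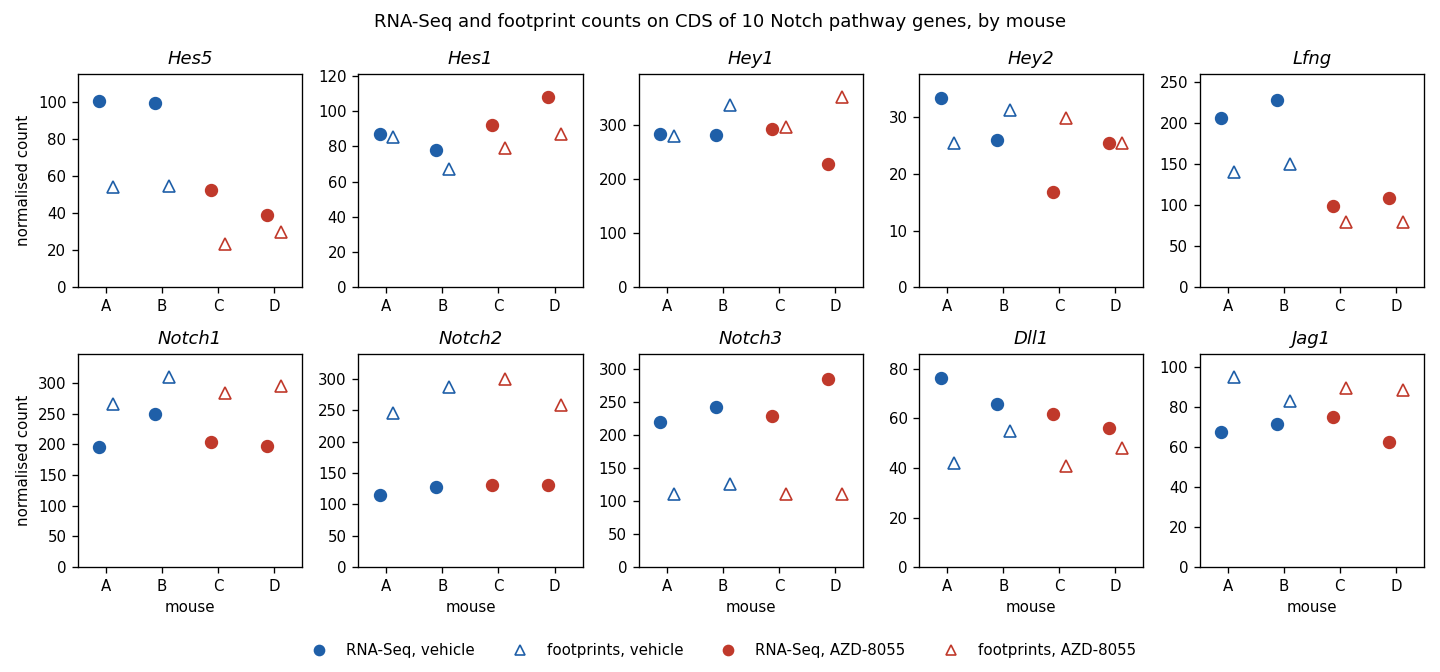
Normalised counts on CDS for each of the 10 genes in mice A and B (vehicle, blue) and C and D (AZD-8055, red), with filled circles for RNA-Seq and open triangles for footprints; each point is 1 library and every vertical axis starts at 0. Hes5 and Lfng are the genes whose treated points lie below the vehicle points in both readouts.

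Lower RNA in a bulk sample can come from fewer cells of a type or from less RNA per cell, and these cannot be told apart here. The summed RNA of 10 astrocyte markers was 16260 and 17720 normalised counts in vehicle mice and 16940 and 16660 in AZD-8055 mice. Which cells held the Hes5 and Lfng RNA was not tested. Without the RNA library of mouse B, which carried the high choroid plexus signal, the log2 RNA change was -1.15 for Hes5 and -0.999 for Lfng, against -1.15 and -1.09 with all 4 mice. Counting over exons in place of CDS gave -1.005 for Hes5 and -0.90 for Lfng.

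The remaining effectors, also Notch targets, differed among themselves. Hes1, a repressor of the same Hes family, had RNA values of 87.36 and 78.19 in vehicle mice and 92.38 and 107.9 in AZD-8055 mice, so its treated values were the higher ones. Its fitted log2 RNA change was 0.26 (SE 0.16). Hey1, a repressor of the related Hey family, ranged from 280.5 to 282.1 in vehicle mice and from 227.5 to 291.8 in AZD-8055 mice, and the groups overlapped. Hey2 was counted too rarely to fit, at a mean of 36.5 RNA reads and 20.5 footprints per library. Its RNA values were 33.31 and 26.06 in vehicle mice and 16.8 and 25.5 in AZD-8055 mice, so that both treated values lay below the vehicle values, while its footprints overlapped. The gap in RNA was within counting error. Mouse B had 38 reads (Poisson 95% interval 26.9 to 52.2) and mouse D had 39 (27.7 to 53.3).

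Among the receptors, Notch1 RNA was 195.4 and 249.0 normalised counts in vehicle mice and 203.7 and 197.5 in AZD-8055 mice. Notch2 RNA was 115.5 and 126.9 in vehicle mice and 130.2 and 131.4 in AZD-8055 mice. Notch3, the receptor best known from the smooth muscle and pericytes of vessels, ranged from 219.9 to 241.4 in vehicle mice and from 228.8 to 283.8 in AZD-8055 mice. The 3 fitted log2 RNA changes lay between -0.17 and 0.13, and the footprint changes between -0.066 and 0.073. Vehicle and treated RNA overlapped for Notch1 and Notch3 and did not for Notch2, whose treated values were the higher ones.

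The ligand Dll1 had RNA values of 76.25 and 65.84 in vehicle mice and 61.59 and 56.23 in AZD-8055 mice. These groups did not overlap, and the log2 change was -0.29 (SE 0.19). Its footprints, 41.83 and 54.71 against 40.59 and 47.94, did overlap and were too few to fit. The ligand Jag1 ranged from 67.37 to 71.33 in vehicle RNA and from 62.77 to 74.88 in treated RNA, with a log2 change of -0.036.

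Over the whole set, 9 genes were fitted in RNA. Hes5 and Lfng had been chosen for lower RNA in this contrast, so their calls do not count as a test. These 2 passed an adjusted p of 0.05 (edgeR quasi-likelihood test with Benjamini-Hochberg adjustment), both lower, where 0.0903% of all genes tested were called lower. Hes5 no longer passed without the RNA of mouse A, B or D, and DESeq2 gave no adjusted p for either gene. Nothing is read from this count, since that contrast chose the set. None of the 7 genes fitted in footprints passed, against 1.03% of all genes. In RNA the groups did not overlap for 6 of 10 genes, where 39.4% of all genes did not overlap. Lower with the drug and without overlap were 4 of 10, against 15.8% of all genes. In footprints the groups did not overlap for 2 of 10 genes, both lower, against 20% of all genes lower without overlap. The all-gene shares cover only genes above the count minimum. The 10 genes also include some below it, Hey2 in RNA and Hes5, Hey2 and Dll1 in footprints. The median log2 RNA change of the 9 genes was -0.14, and that of all genes was -0.0035. Hes5 and Lfng, chosen for lower RNA in this contrast, enter these shares and this median, so nothing is read from them.

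Translation efficiency sets footprints against the same RNA values that chose Hes5 and Lfng, so it too is given as a description. The fitted log2 TE change was 0.14 (SE 0.37) for Hes5 and 0.21 (SE 0.23) for Lfng. For Hes5 the log2 TE was -0.90 and -0.86 in vehicle mice and -1.16 and -0.39 in AZD-8055 mice. Its treated mice thus lay on either side of the vehicle pair, and the fitted change moved to -0.28 without mouse D and to 0.52 without mouse C. The TE changes of the other 7 genes fitted lay between -0.21 and 0.23. None of the 9 passed the TE call, an adjusted p under 0.05 with a fold over 2, which 0.305% of all genes passed, and nothing is read from this count.

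**Figure D2:**
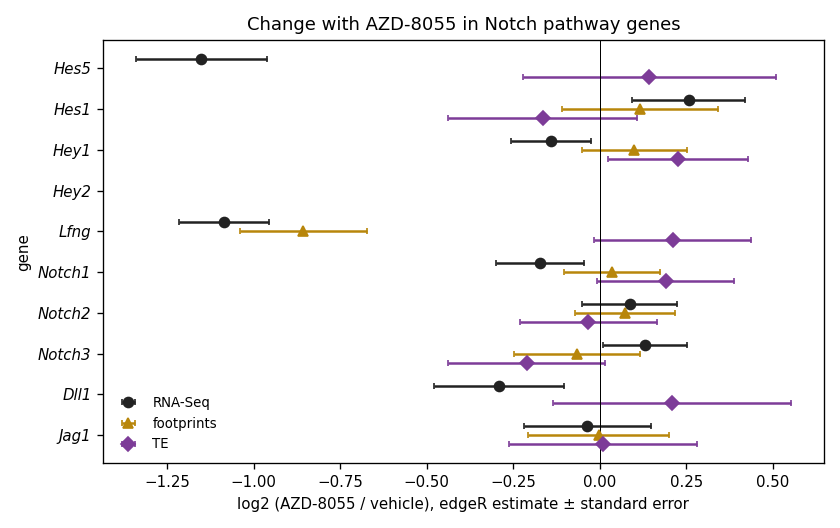
Fitted log2 change from vehicle to AZD-8055 (horizontal axis) in RNA-Seq (circles), footprints (triangles) and TE (diamonds) with standard errors as bars, 2 mice per group. Hes5 and Lfng RNA lie near -1.15 and -1.09 while the remaining points lie between -0.29 and 0.26 except for Lfng footprints at -0.86; genes under the count minimum have no point.

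Of 49 further pathway genes, 44 were counted deeply enough in RNA. None of them passed with the drug in edgeR, where 0.148% of all genes passed, and log2 changes ran from -0.36 to 0.37 with a median of -0.025. Among them 3 had an unadjusted p under 0.05, and DESeq2 called 0 while giving no adjusted p for 17 of them. In footprints 0 of 36 passed in edgeR and in DESeq2, where 1.03% of all genes passed in edgeR, with 6 at an unadjusted p under 0.05. For TE 0 of 42 passed in both tools, where 0.305% of all genes passed in edgeR, with 3 at an unadjusted p under 0.05. At these shares a list of this size would hold few or no called genes, and nothing is read from the counts of 0. The nuclear partners (Rbpj, the Maml co-activators and the Tle co-repressors among 11 genes) had a median log2 RNA change of -0.061, and the 9 protease genes, which include the subunits of gamma-secretase that releases the intracellular part of Notch, one of 0.011.

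The untreated inputs of mice E and F gave a further control level for RNA, scaled together with mice A to D over the CDS counts of the 8 RNA-Seq libraries. On that scale Hes5 was 71.27 and 72.83 normalised counts in the inputs, 144.9 and 144.3 in vehicle mice, and 74.14 and 56.21 in AZD-8055 mice. The untreated inputs thus lay below the vehicle mice and within the range of the AZD-8055 mice. The log2 difference from the inputs was 0.97 (SE 0.18) for vehicle and -0.17 (SE 0.22) for AZD-8055.

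Lfng placed its untreated values differently, at 299.5 and 177.1 normalised counts in the inputs of E and F. Vehicle mice were at 297.2 and 331.5 on this scale and AZD-8055 mice at 139.4 and 156.4. The input of E overlapped the vehicle mice, and the input of F lay between the groups. The log2 difference from the inputs was 0.37 (SE 0.21) for vehicle and -0.71 (SE 0.24) for AZD-8055.

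Among the receptors, Notch1 and Notch2 RNA stood lower in mice A to D than in the inputs, and Notch3 RNA did not. Notch1 was 505.7 and 461.6 in the inputs, 281.2 and 361.3 in vehicle mice and 287.7 and 282.9 in AZD-8055 mice, so that each of mice A to D lay below both untreated mice. Notch2 showed the same order, with 271.4 and 216.6 in the inputs and 166.2 to 188.3 in mice A to D. Notch3 overlapped, with 382.1 and 345.0 in the inputs and 316.4 to 406.6 in mice A to D. Hey1 stayed close, at 407.2 and 426.5 in the inputs against 405.8 and 407.1 in vehicle mice. Across all genes 12.4% passed an adjusted p of 0.05 between vehicle mice and inputs, and 13.5% between AZD-8055 mice and inputs. Treatment and experiment cannot be told apart in this comparison, which was added after the values were seen.

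**Figure D3:**
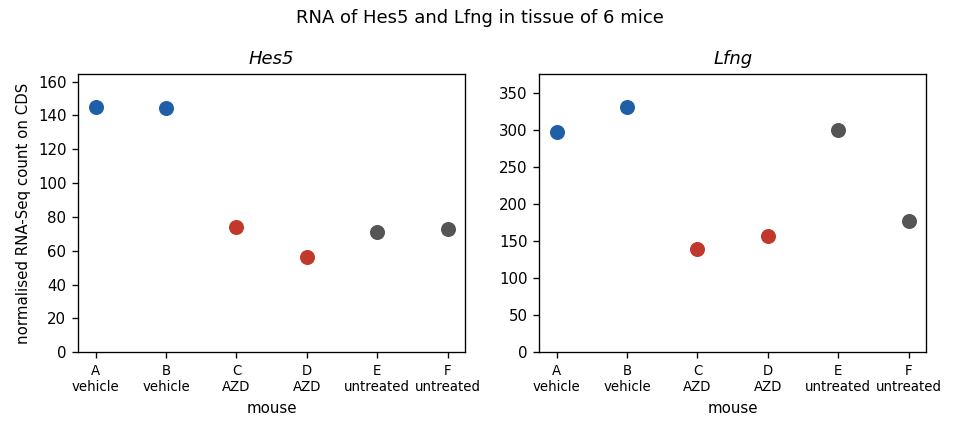
Normalised RNA-Seq counts on CDS for Hes5 (left) and Lfng (right) in mice A and B (vehicle), C and D (AZD-8055) and E and F (untreated input), 1 point per library, vertical axes from 0. For Hes5 the untreated points at 71.27 and 72.83 lie beside the AZD-8055 points and below the vehicle points.

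Genes with an RNA pattern like that of Hes5 were ranked by Pearson correlation of log2 values over the 8 RNA-Seq libraries, as a description. The 5 closest of 12214 genes were Rbm12b2 (0.928), Rgs16 (0.926), Srd5a1 (0.848), Diexf (0.814) and Phf10 (0.795). For Lfng they were Mdn1 (0.989), Uhrf1bp1 (0.986), Mgp (0.984), Ubr4 (0.984) and Sult1a1 (0.984). These points share their libraries, and the IP libraries stand apart for Lfng. Without the IP libraries (6 libraries) the same genes stood between 0.851 and 0.947 for Hes5 and between 0.916 and 0.992 for Lfng. These libraries are among those that ranked the genes, so this is no separate check. Hes5 and Lfng correlated with each other at 0.326 over 8 libraries and at 0.733 without IP. Both were chosen for lower RNA in mice C and D, which are among these libraries, so nothing is read from that correlation. Dll1, at 0.546, was the member closest to Hes5 over 8 libraries.

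RiboTag IP against input asked which of these RNAs were bound to ribosomes of the Camk2a-expressing neurons. The genes were chosen by RNA of mice A to D and not by IP values, although earlier results of mice E and F were known, and all 10 were tested here. A gene was called when the adjusted p was under 0.05 and the fold over 2, on exon counts. Lower in IP were 5 of 10, Notch1, Notch2, Notch3, Jag1 and Lfng, while 21.8% of all genes were lower. Higher were 0 of 10, against 11.7% of all genes, and in DESeq2 likewise 5 were lower and 0 higher. Hes1 and Hey1 were the 2 genes with a positive difference at an unadjusted p under 0.05. The median log2 difference of the 10 genes was -1.77, and that of all genes was -0.034. Scaling by total counts moved the all-gene median to -0.31 and the calls over all genes from 1545 higher and 2888 lower to 774 higher and 3653 lower.

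All 3 receptors were depleted from IP. Notch1 had 800.4 and 707.4 normalised counts in the inputs of E and F and 138.5 and 141.8 in their IPs, a fitted log2 difference of -2.54 (SE 0.13, adjusted p = 6.4e-05, edgeR). Notch2 went from 537.8 and 454.0 in input to 61.25 and 84.15 in IP, with a log2 difference of -2.88 (SE 0.21, adjusted p = 0.000101, edgeR). Notch3 went from 508.8 and 454.0 to 50.6 and 74.93, with a log2 difference of -3.04 (SE 0.22, adjusted p = 9.9e-05, edgeR). In each receptor both mice moved the same way, and input and IP did not overlap.

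Lfng was depleted likewise, from 549.7 and 323.1 normalised counts in input to 69.24 and 79.54 in IP. Its log2 difference was -2.66 (SE 0.30, adjusted p = 0.000423, edgeR). The inputs of E and F differed more from each other than their IPs did.

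The ligands parted. Jag1 fell from 149.9 and 252.0 to 15.98 and 47.26, with a log2 difference of -2.76 (SE 0.49, adjusted p = 0.00273, edgeR), on 12 and 41 reads in the IPs. Dll1 went from 157.2 and 153.5 to 93.21 and 76.08, a log2 difference of -0.99 (SE 0.21, adjusted p = 0.00559, edgeR) that was 1.99-fold and so missed the fold limit. Dll1 was called lower under total count scaling (-1.27), without the IP of mouse E (-1.10) and without the input of mouse F (-1.03).

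The effectors stood apart from the receptors. Hey1 had 1129 and 1150 normalised counts in input and 2244 and 2168 in IP, with per-mouse log2 ratios of 0.99 and 0.92. Its fitted log2 difference was 0.84 (SE 0.090, adjusted p = 0.000362, edgeR), under the fold limit. Hes1 had 206.2 and 190.8 in input and 350.2 and 303.2 in IP, a fitted log2 difference of 0.60 (SE 0.16, adjusted p = 0.0137, edgeR). Both genes were higher in IP in both mice, and with CDS counts Hes1 passed the call at 1.07.

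Hes5 gave 155.4 and 163.3 normalised counts in input and 215.7 and 153.3 in IP. The mice differed in direction, with log2 ratios of 0.47 in E and -0.091 in F, and the fitted difference was 0.091 (SE 0.22, adjusted p = 0.727, edgeR). Its sign turned under total count scaling (-0.19) and without the IP of mouse E (-0.13). Hey2 had 93.58 and 107.7 in input and 61.25 and 92.22 in IP, with a log2 difference of -0.50 (SE 0.27, adjusted p = 0.142, edgeR).

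**Figure D4:**
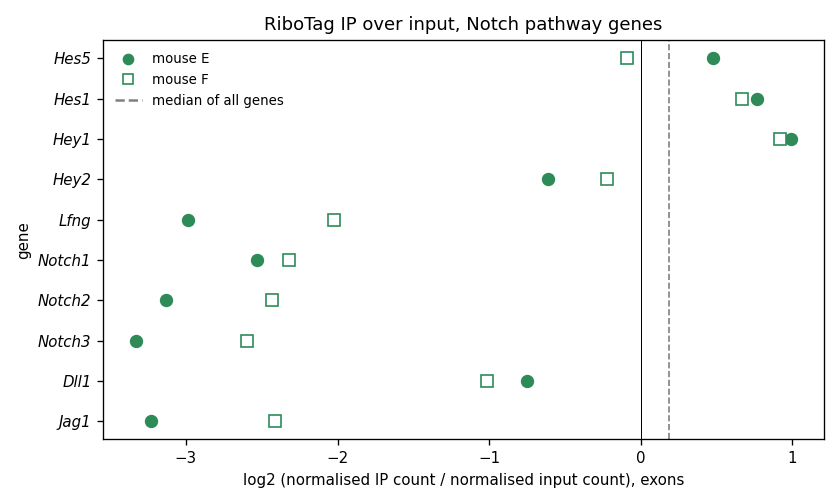
Log2 ratio of normalised exon counts in RiboTag IP over input (horizontal axis) for each gene, with a filled circle for mouse E and an open square for mouse F; the dashed line is the median of all genes and the solid line marks equal levels. Receptors, Lfng and Jag1 lie between -3.33 and -2.02, and Hes1 and Hey1 lie at or above 0.67.

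The markers of other cell types moved in the same direction as the depleted members. Astrocyte markers were lower in IP for 9 of 10 genes (median log2 difference -2.90), and their summed level was 106300 and 109800 normalised counts in the inputs against 18670 and 21230 in the IPs. Endothelial markers were lower for 8 of 8 (median -3.66), with sums of 5534 and 5881 in input and 484.7 and 770.0 in IP. Mural markers were lower for 6 of 6 (median -3.86), with sums of 3642 and 3801 in input and 279.6 and 321.6 in IP. Also lower were microglia markers (6 of 6, median -3.27) and those of oligodendrocyte precursors (4 of 4, -3.07). The same held for oligodendrocyte (5 of 5, -2.84) and inhibitory neuron markers (6 of 6, -2.09), and for 2 of 3 ependymal and choroid plexus markers tested (-1.25). Of 6 excitatory neuron markers 2 were higher and 0 lower, and their sum went from 145000 and 129600 to 291500 and 262000. No astrocyte, endothelial, mural or excitatory neuron marker was at 0 in IP by exon counts. The part of any of these cell types in the members' differences was not tested.

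Among the further pathway genes, 45 were tested in IP, and 11 were lower and 2 higher, where 21.8% of all genes were lower and 11.7% higher. The share lower was thus near that of all genes. The median log2 difference was -0.19, against -0.034 over all genes. The receptor Notch4, best known from endothelium, was lower by a log2 difference of -2.12, and so were the ligands Dll4 (-2.09) and Jag2 (-1.39). The effector Heyl stood at -3.17 (SE 0.63) and was counted too rarely to fit in RNA of mice A to D. The ubiquitin ligase Mib1, which drives ligand endocytosis, stood at -2.67, and the fringe enzyme Mfng at -2.12. Of the nuclear genes Tle2 (-2.23), Maml2 (-2.01) and Spen (-1.08) were lower. Adam17, a protease that can cut Notch, was lower at -1.90, and Nrarp, a feedback inhibitor induced by Notch, at -1.94. The genes that were higher were Psenen (1.18), a gamma-secretase subunit, and Numbl (1.14), a relative of the Notch inhibitor Numb. Both fell short of the fold limit under total count scaling, at 0.91 and 0.86, and Numbl did so without the input of mouse F, at 0.92. Spen lost its call without the input of mouse E (-0.75) or the IP of mouse F (-0.80).

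Baseline TE compared footprints with RNA within vehicle mice A and B. Hes5 and Lfng are described only, because their vehicle RNA entered the selection. Of the other 8 genes, 7 passed the count minimum, and 1 of them, Notch2, was called higher, where 13.3% of all genes were called higher and 17.5% lower.

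The receptors spread widely. Notch2 had log2 TE of 1.09 and 1.18 in mice A and B, a mean of 1.13 ± 0.067 (SD, n = 2) at percentile 90.6 of 10880 genes. Its fitted value was 1.16 (SE 0.14, adjusted p = 4.4e-06, edgeR). Notch3 had log2 TE of -0.99 and -0.95, at percentile 15.8, with a fitted value of -0.95 (SE 0.14, adjusted p = 3.2e-05, edgeR) just under the fold limit. Notch1 lay between them at 0.44 and 0.31, with a fitted value of 0.39 (adjusted p = 0.0222, edgeR). The values of the 3 receptors did not overlap in either vehicle mouse. They kept that order in AZD-8055 mice C and D, with 1.20 and 0.97 for Notch2, 0.48 and 0.58 for Notch1, and -1.04 and -1.36 for Notch3. Notch3 was called lower under total count scaling (-1.09), without the count filter (-1.06), without the RNA of mouse A (-1.02) and without the footprints of mouse B (-1.03).

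Jag1 had log2 TE of 0.50 and 0.22 (adjusted p = 0.074, edgeR), and Dll1 had -0.87 and -0.27 (adjusted p = 0.0511, edgeR). The Dll1 mice differed more from each other than those of any receptor. Hey1 stood at -0.012 and 0.26 (adjusted p = 0.263, edgeR) and Hes1 at -0.034 and -0.22 (adjusted p = 0.827, edgeR). Hes5 was at -0.90 and -0.86, percentile 17.8, and Lfng at -0.56 and -0.61, percentile 26.4. Hey2, at -0.39 and 0.26, was under the count minimum. The all-gene median was 0.016.

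**Figure D5:**
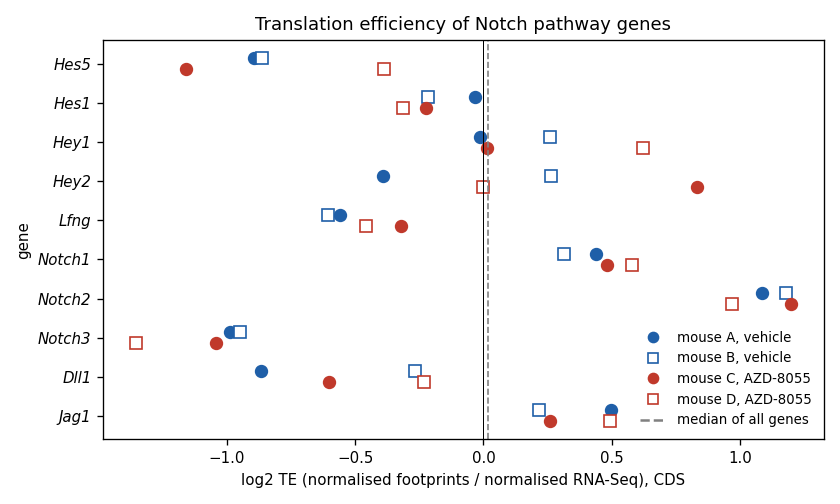
Log2 TE on CDS (horizontal axis) for each gene in vehicle mice A and B (blue) and AZD-8055 mice C and D (red), 1 symbol per mouse, with the dashed line at the median of all genes in vehicle mice. Notch2 lies to the right at 0.97 to 1.20, Notch3 to the left at -1.36 to -0.95, and the red Hes5 points lie on both sides of the blue ones.

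Of the further pathway genes 42 were tested for baseline TE, and 11 were lower and 2 higher, where 17.5% of all genes were lower and 13.3% higher. Their median fitted log2 TE was -0.35, against -0.0051 over all genes. The ligand endocytosis genes split, with Mib1 higher (1.57) and Mib2 (-2.25) and Neurl1a (-2.15) lower. The ligand-like genes did too, with Dner higher (1.07) and Dlk2 (-2.67) and Jag2 (-1.54) lower. Tle2 had the lowest log2 TE of the list (-2.91). Dtx3 (-2.09), Dtx1 (-1.35) and Nrarp (-1.13) were lower among genes that restrain or turn over Notch, as were Rfng (-2.05), a fringe enzyme like Lfng, Furin (-1.53), which processes the receptor precursor, and Notch4 (-1.39). Dner fell short of the fold limit under total count scaling (0.93) and without the count filter (0.96).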

How the data were processed

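Poly(A) RNA-Seq and ligation-free footprint libraries were made from frontal lobe of Camk2a-cre-RiboTag mice. Per the labels and the study's methods, footprint reads had their first 5 and last 20 bases trimmed and poly(A) clipped, reads under 15 bases were discarded, and reads were aligned (TopHat2, Bowtie2) to mm10 and counted with HTSeq. The authors deposited raw counts per gene on CDS and on exons. Entries with date-like names numbered 27 (0.35% of counts). Duplicate-like libraries were not found: replicates differed beyond counting error. Replicates are separate mice, 2 per group. Intervals cover counting error only.

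Counts were fitted over all genes with edgeR 4.0.16 (quasi-likelihood, TMM) in R 4.3.3 after a minimum mean of 37 counts per library; RNA, footprint, baseline TE and TE change used CDS counts and RiboTag used exon counts. IP, baseline TE and TE change were called at adjusted p under 0.05 and fold over 2, and RNA and footprints at adjusted p under 0.05. Footprint and RNA of a group entered 1 fit for TE. The study's TE tool, RiboDiff, was not used here, and the edgeR interaction took its place. Per-mouse ratios used DESeq2 1.42.0 size factors and at least 75 summed counts for percentiles. Over the 11986 genes with that many exon counts the median per-mouse log2 IP ratio was 0.19, and scaling by total counts moved the fitted all-gene median of baseline TE from -0.0051 to -0.14. On simulated counts with 200 genes changed by a log2 of 1.5, the fits recovered 98.5% (IP), 99.5% (baseline TE), 99.5% (RNA), 100% (footprints) and 93% (TE change). False calls made up 0% (IP, baseline TE), 2.45% (RNA), 5.21% (footprints) and 1.06% (TE change) of the calls. The changed genes were drawn from better-counted genes, and all genes had the same fixed spread. These rates therefore do not carry over to smaller changes or to genes with few reads, such as Hes5, Hey2 and Dll1 in footprints.

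The same letter marks the same mouse, so libraries are paired by mouse for IP and TE. Deviations of paired libraries from their group means correlated at 0.257 (A, B), 0.241 (C, D) and 0.563 (E, F). The mouse block was an alternative, beside DESeq2, other scalings, no count filter, no fold limit, the other count table and leaving out each library.

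The members and all gene lists were chosen with earlier results of these data known. The text names all 10 members, up to 3 called genes per role of the further pathway genes, markers by count, and the 5 genes closest to Hes5 and to Lfng. Sequences are RefSeq (GRCm38.p6). Levels were not compared between genes, since no coding lengths were used here. Positions are 1-based. Mice E and F as controls and correlations without IP were added after the data were seen.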

Additional observations from a re-analysis of the deposited data

How the results depend on the processing

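Over the other settings tried for the 10 genes, 402 values stayed on their side of the threshold and near their main value, 31 moved and 13 passed a call they had missed; no call of a member in IP or baseline TE was lost or turned in sign. In RNA with AZD-8055, Hes5 no longer passed without the RNA of mouse A, B or D, while Lfng footprints passed without the count filter. Nothing is read from whether members pass in RNA or footprints, since the RNA contrast of mice A to D chose the set. DESeq2 gave no adjusted p for 7 of the 9 members fitted in RNA, Hes5 and Lfng among them, so that it neither called nor rejected these; over all genes it called 23. Without a fold limit, called genes rose from 4433 to 9194 in IP, from 3665 to 8738 in baseline TE and from 36 to 102 in TE change; members higher in IP rose from 0 to 2, members in baseline TE from 1 to 3, and further pathway genes from 13 to 27 in IP and from 13 to 32 in baseline TE. Without the count filter, counts were 5667 in baseline TE, 78 in RNA against 18, 264 in footprints against 110 and 57 in TE change, with 2 members in baseline TE. Scaling by total counts gave 29 genes in RNA and 2 members in baseline TE. CDS counts gave 1 member higher in IP (Hes1) and turned the ligand endocytosis gene Neurl1b from 0.20 to -1.47. Leaving out 1 library or mouse gave 13 to 36 genes in RNA, 64 to 837 in footprints, 4197 to 4703 in IP, 3523 to 3872 in baseline TE and 27 to 39 in TE change. The same gave 5 to 6 members lower and 0 to 0 higher in IP, 1 to 2 members in baseline TE, and 12 to 15 further pathway genes in IP, 14 to 15 in baseline TE, 0 to 0 in RNA and TE change and 0 to 3 in footprints. The 837 came without the footprints of mouse C, which also gave the 3 (Neurl1a, Neurl1b and Dtx3). The cause of these changes was not tested. With the mouse as a replicate block, members lower in IP stayed 5 and members called in baseline TE stayed 1, with 4463 genes in IP, 3649 in baseline TE and 43 in TE change; pairing changed no member's call. Depth limited Hes5, Hey2 and Dll1 footprints, at means of 33, 20.5 and 34.25 reads.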
